A study of Homo sapiens with 6 samples.

Results

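The 10 genes described here encode transcription factors of the epidermal lineage: TP63, GRHL1, GRHL2, GRHL3, OVOL1, ZNF750, TFAP2A, TFAP2C, BCL11B and KLF5. They were taken by gene symbol from a table of 20035 genes, and all 10 symbols were found. The assay was sequencing of poly(A) RNA from HaCaT cells, a spontaneously immortalized human keratinocyte line. The 3 palmatine libraries came from wild-type HaCaT cells treated with palmatine, a protoberberine plant alkaloid, and the 3 control libraries from wild-type HaCaT cells whose treatment label is none. The series describes a psoriasis-like model in which HaCaT cells are stimulated with IL-17 before palmatine. Whether the control cells received IL-17 is not stated, so IL-17 and palmatine cannot be told apart if they did not, and the sources used here give neither the dose nor the duration of palmatine.

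These factors set up and maintain stratified epithelium. p63, the product of TP63, opens and holds the keratinocyte programme in basal cells, together with the AP-2 proteins encoded by TFAP2A and TFAP2C and with KLF5. The grainyhead-like factors (GRHL1, GRHL2 and GRHL3) act on adhesion, barrier and epithelial identity genes. ZNF750 is a p63 target that promotes terminal differentiation, OVOL1 is a zinc-finger repressor that takes part in the exit from proliferation, and BCL11B is a zinc-finger factor, best known from T cells, that is also needed for normal epidermal development and barrier formation. TP63 produces a long TA and a short delta-N form from different start sites, and a gene-level count adds all forms together.

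The promoter window of BCL11B is shown because BCL11B had the largest difference between the groups, and those of GRHL3 as an example of a gene with 2 listed starts, 3683 bases apart, whose transcripts are counted together. KLF5 and TFAP2A have 2 listed starts as well. Each window runs from 250 bases before the RefSeq start to 50 bases from the start on (GRCh38.p14) and is written 5′ to 3′ on the gene's strand. Capitals mark matches, on either strand, to any of 4 motifs that were searched: the AP-2 motif GCCNNNGGC, the grainyhead motif AACCGGTT, the GC box GGGCGG bound by Sp and KLF proteins, and the decamer of the p53 family.
BCL11B, chr14:99272148-99272447, minus strand: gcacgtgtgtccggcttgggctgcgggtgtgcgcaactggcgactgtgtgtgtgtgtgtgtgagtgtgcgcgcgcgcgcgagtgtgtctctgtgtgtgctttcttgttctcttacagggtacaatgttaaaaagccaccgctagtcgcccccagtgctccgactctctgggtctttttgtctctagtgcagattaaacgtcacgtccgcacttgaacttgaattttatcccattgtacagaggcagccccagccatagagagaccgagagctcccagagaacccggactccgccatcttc
GRHL3 upstream start, chr1:24319107-24319406, plus strand: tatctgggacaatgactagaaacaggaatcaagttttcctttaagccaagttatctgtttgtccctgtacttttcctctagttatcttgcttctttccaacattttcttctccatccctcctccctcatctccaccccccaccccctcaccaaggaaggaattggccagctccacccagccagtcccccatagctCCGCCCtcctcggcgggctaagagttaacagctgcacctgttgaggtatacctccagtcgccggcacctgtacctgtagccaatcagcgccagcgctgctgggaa
GRHL3 downstream start, chr1:24322790-24323089, plus strand: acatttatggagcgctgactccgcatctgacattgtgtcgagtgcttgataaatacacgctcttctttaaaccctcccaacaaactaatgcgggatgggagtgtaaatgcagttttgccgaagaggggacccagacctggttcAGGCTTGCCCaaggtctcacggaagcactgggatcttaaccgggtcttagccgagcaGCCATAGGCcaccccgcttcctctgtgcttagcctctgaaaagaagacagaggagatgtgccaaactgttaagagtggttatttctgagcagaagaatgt

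The BCL11B window held none of the 4 motifs. The upstream GRHL3 window held a GC box at position -55 relative to the start. The downstream GRHL3 window held a p53 family decamer at -107 and an AP-2 match at -50, and these matches did not overlap. RefSeq windows were found for 6 of the 10 genes, 9 windows in all. Of these 9 windows, 1 held an AP-2 match, against 23.2% of all 35116 windows of that length, and 3 held a GC box, against 45.0%. The p53 family decamer was in 1 of the 9, against 6.63% of all windows, and the grainyhead motif in 0 of the 9, against 0.134%. A match describes letters in these windows and does not show binding.

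The libraries held 15155605 to 17218171 counts in the palmatine group and 12908646 to 15699753 in the control group. Separate cultures are not mentioned in the labels. The p-values below therefore reflect only how far these samples vary, and that variation may be technical. All 10 keratinocyte markers examined were tested (among them KRT5, KRT14 and COL17A1), with a summed level of 3353 to 3870 FPKM in palmatine libraries and 3487 to 3655 FPKM in control libraries. Of these 10, 3 had a positive and 7 a negative log2 fold change, with a median of -0.06, and 0 passed the test described below. FPKM is the count scaled by gene length and by the library total. The summed level of 8 fibroblast markers was 0.501 to 0.866 FPKM in palmatine and 0.406 to 0.670 FPKM in control libraries, that of 6 melanocyte markers 0.753 to 0.800 FPKM in palmatine and 0.566 to 0.735 FPKM in control libraries, and that of 9 immune cell markers 1.90 to 1.94 FPKM in palmatine and 1.89 to 2.23 FPKM in control libraries. Of these 3 lists, COL1A2, THY1, TYR, DCT, CD3D, CD68 and MS4A1 had 0 counts in all 6 libraries, while COL1A1, COL3A1, PMEL, MLANA and CD14 had enough counts to be tested, with at most 74 in a library, and 0 passed. The log2 fold changes of the fibroblast gene COL3A1 and the melanocyte gene MLANA were 0.83 and 0.79 (edgeR adjusted p = 0.455 for each). Both had palmatine wholly above control libraries, as had 6.68% of all tested genes. COL3A1 had at most 23 counts in a library and MLANA at most 18. COL1A1 was at 0.36, PMEL at -0.13 and the immune gene CD14 at -0.21. CD14 had palmatine wholly below control libraries, as had 5.71% of all tested genes. The part of such cells or reads in the results was not tested. The first principal component of the libraries held 51.0% of the variance, with palmatine replicate 1 at one end and control replicate 3 at the other. The groups overlapped on it, as control replicate 1 (-5.80) lay between palmatine replicate 3 (-13.4) and palmatine replicate 2 (4.55).

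The 10 factors spanned a wide range of levels, shown in the plot of FPKM by library. KLF5 and TP63 were the most abundant, with 72.0 ± 6.32 and 69.9 ± 6.52 FPKM over all 6 libraries (SD, n = 6). These 2 genes carried 71.1% to 73.5% of the summed FPKM of the 10 in each library. TFAP2C followed at 25.1 ± 1.54 FPKM, GRHL2 at 17.5 ± 1.40 FPKM and TFAP2A at 6.83 ± 0.973 FPKM (SD, n = 6). GRHL3 was at 1.67 ± 0.262 FPKM, OVOL1 at 1.64 ± 0.270 FPKM, BCL11B at 0.689 ± 0.212 FPKM and GRHL1 at 0.616 ± 0.0999 FPKM (SD, n = 6). ZNF750 was lowest at 0.0961 ± 0.0248 FPKM, 749 times below KLF5. KLF5 and TP63, GRHL3 and OVOL1, and BCL11B and GRHL1 were neighbours whose ranges over the 6 libraries overlapped. The ranges of the other neighbours in the order did not overlap.

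**Figure D1:**
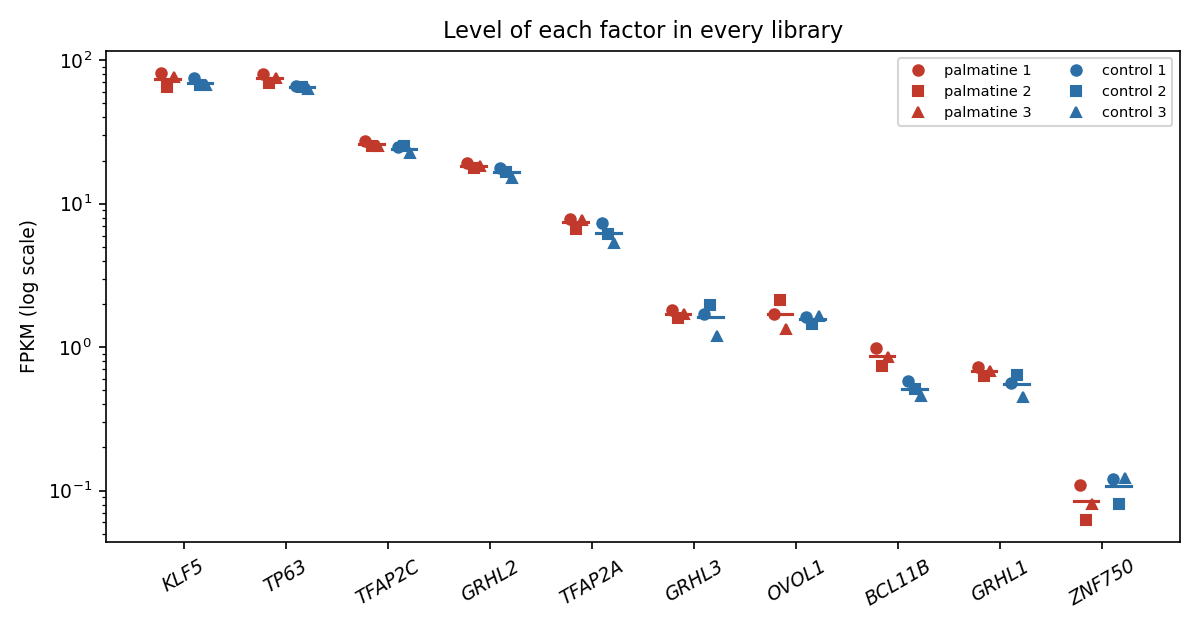
FPKM of each of the 10 factors on a log axis, ordered by mean level, with palmatine libraries (red) left of control libraries (blue), 1 symbol per replicate and a bar at each group's mean. KLF5 and TP63 lie near 70 FPKM and ZNF750 near 0.1 FPKM, and the groups separate for TP63 and BCL11B.

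No factor of this set passed the threshold between palmatine and control cells. Of the 10 genes, 9 had enough counts to be tested, and 0 of these 9 had an adjusted p under 0.05 in the edgeR quasi-likelihood test, where 0.0405% of all 12356 tested genes did (5 genes, 0 higher and 5 lower in palmatine). DESeq2 and limma-voom also called 0 of the 9. All 9 log2 fold changes were positive, from 0.00 for GRHL3 to 0.69 for BCL11B, with a median of 0.09. Of the 9, 7 were positive without palmatine replicate 1 or control replicate 3, and 8 without palmatine replicate 2. Over all tested genes 49.6% were positive and the median was 0.00. By edgeR without adjustment, 1 of the 9, BCL11B, had a p under 0.05 and was higher, and 0 were lower; of all tested genes 9.82% had such a p, 5.13% as higher and 4.69% as lower. The 95% interval lay within a 1.5-fold change either way for 8 of the 9, and for 79.4% of all tested genes.

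**Figure D2:**
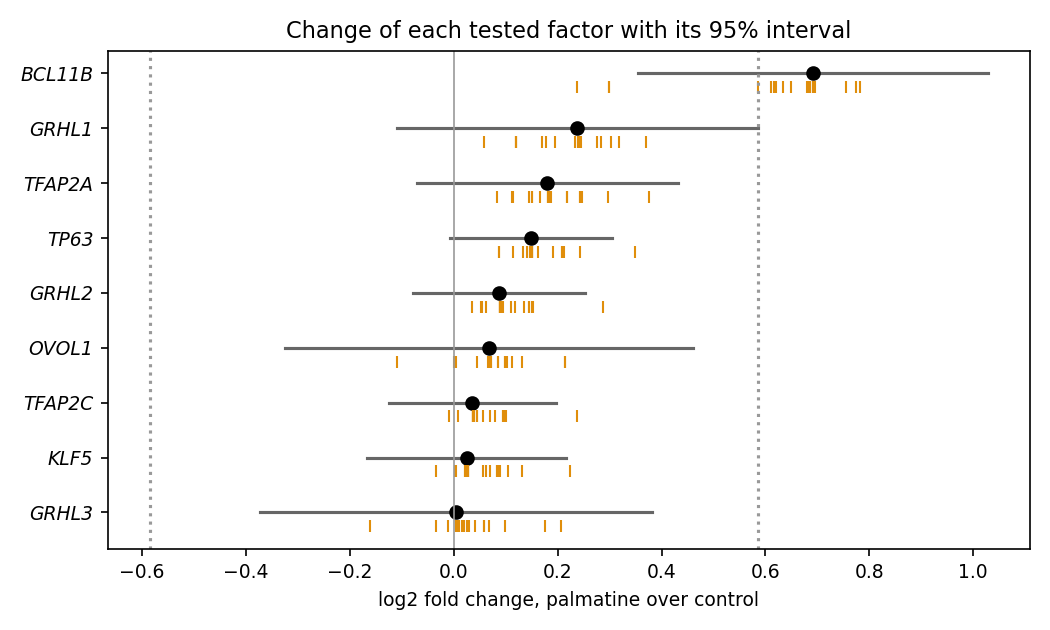
Log2 fold change of palmatine over control for the 9 tested factors (black points) with 95% intervals from edgeR (grey lines). Orange ticks are the values under 21 alternative settings and dotted lines mark a 1.5-fold change. BCL11B, at 0.69, is the only factor whose interval reaches past 1.5-fold.

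BCL11B had the largest difference of the set and stayed short of the threshold. It lies on chromosome 14, positions 99169287 to 99272197, minus strand, in the table's coordinates, which follow GRCh38. It had 146, 96 and 115 counts in palmatine replicates 1 to 3, against 65, 68 and 50 counts in control replicates 1 to 3. On the CPM scale (counts scaled to TMM-adjusted library sizes, not to gene length) this was 8.18, 6.26 and 7.18 in palmatine cells, against 5.00, 4.42 and 4.00 in control cells. Each palmatine library was above each control library. Of all tested genes 6.68% had palmatine libraries wholly above the controls, and 5.71% wholly below. The means were 7.21 ± 0.958 CPM in palmatine and 4.47 ± 0.506 CPM in control cells (SD, n = 3 per group). The fold change was 1.61, with a 95% interval from 1.28 to 2.04, and the log2 fold change was 0.69 with a standard error of 0.15 (edgeR adjusted p = 0.455). BCL11B ranked 19 of 12356 by p. Leaving out 1 library at a time gave log2 fold changes from 0.59 (without palmatine replicate 1) to 0.78 (without palmatine replicate 2), and the adjusted p was from 0.0716 to 0.932 over all 21 alternatives. On the log2(FPKM + 1) scale, which compresses low genes, the value was 0.30. BCL11B and TP63 were the 2 of the 9 tested factors whose groups did not overlap. AL109767.1 overlaps BCL11B on the opposite strand, and its reads cannot be told apart from those of BCL11B without strand information.

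Among the genes whose log2 CPM followed BCL11B most closely over the 6 libraries were SCRN1 (Pearson r = 0.995) and SPDYE18 (r = 0.993), a member of a multigene family whose reads may be shared. In all, 457 tested genes had an r over 0.9 with BCL11B, so many genes share this order of libraries. The difference of SCRN1 itself was smaller than that of BCL11B: SCRN1 averaged 202 CPM in palmatine and 192 CPM in control cells, with a difference of 0.07 on the log2 scale (edgeR adjusted p = 0.562).

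TP63, on chromosome 3 from 189631389 to 189897276 on the plus strand, was deeply sampled, with 7929 to 10268 counts in palmatine libraries and 6081 to 7616 in control libraries. Its level was 575, 517 and 555 CPM in palmatine replicates 1 to 3, against 505, 496 and 486 CPM in control replicates 1 to 3. The groups did not overlap, but the gap between the lowest palmatine and the highest control library was small, 517 against 505 CPM. The means were 549 ± 29.4 CPM in palmatine and 496 ± 9.67 CPM in control cells (SD, n = 3 per group). The fold change of 1.11 had a 95% interval from 0.995 to 1.23 (edgeR adjusted p = 0.455). With the trend on gene length removed, described below, the log2 fold change was 0.09, against 0.15. AC078809.1 overlaps TP63 on the opposite strand, so the same limit on strand holds for TP63.

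KLF5, on chromosome 13 from 73054976 to 73077541 on the plus strand, had 289, 238 and 275 CPM in palmatine replicates 1 to 3, against 279, 255 and 254 CPM in control replicates 1 to 3. The groups overlapped, with palmatine replicate 2 the lowest library and palmatine replicate 1 the highest. The fold change was 1.02, with a 95% interval from 0.891 to 1.16 (edgeR adjusted p = 0.903). The ratio of KLF5 to TP63 in FPKM, which does not depend on library scaling, was 1.02, 0.934 and 1.01 in palmatine replicates 1 to 3, against 1.12, 1.04 and 1.06 in control replicates 1 to 3. The highest palmatine ratio was below the lowest control ratio. TP63 is the longer gene, and with the trend on gene length removed the log2 fold changes of KLF5 and TP63 lay closer together, at 0.06 and 0.09 against 0.03 and 0.15 before. The ratio was looked at after the values were seen and has no test.

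**Figure D3:**
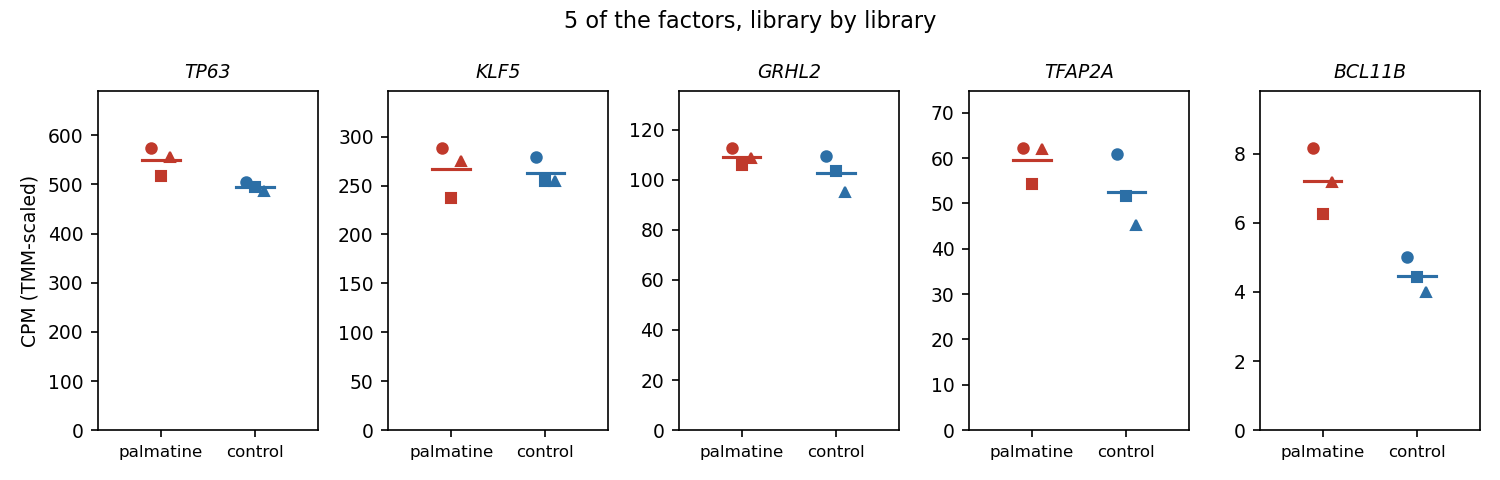
CPM on TMM-scaled library sizes for 5 factors, each panel with its own axis from 0, palmatine libraries (red) left of control libraries (blue), circles, squares and triangles for replicates 1, 2 and 3 and a bar at each mean. TP63 and BCL11B show no overlap, whereas KLF5, GRHL2 and TFAP2A overlap.

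Among the grainyhead-like genes, GRHL2 made up most of the family. Its share of the summed GRHL FPKM was 88.3%, 88.8% and 88.4% in palmatine replicates 1 to 3, against 88.7%, 86.5% and 90.2% in control replicates 1 to 3. GRHL3 held 8.23% ± 0.142 in palmatine and 8.60% ± 1.54 in control cells, and GRHL1 3.28% ± 0.0971 in palmatine and 2.92% ± 0.342 in control cells (SD, n = 3 per group). An exact two-sided permutation test of the libraries gave p = 0.2 for the GRHL1 share, p = 0.7 for GRHL3 and p = 1 for GRHL2, where 3 against 3 allows no p below 0.1. Over the 5 shares tested in both families the adjusted p ran from 0.5 to 1. The shares of TFAP2A and TFAP2C mirror each other, so their tests are the same test.

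GRHL2 itself, on chromosome 8 from 101492439 to 101669726 on the plus strand, had 113, 106 and 109 CPM in palmatine replicates 1 to 3, against 109, 104 and 94.9 CPM in control replicates 1 to 3, so the groups overlapped. Its fold change was 1.06, with a 95% interval from 0.948 to 1.19 (edgeR adjusted p = 0.577). AP001207.1, AP001207.2 and AP001207.3 overlap GRHL2 on the opposite strand. GRHL1, on chromosome 2 from 9951693 to 10002277 on the plus strand, had 5.60, 4.96 and 5.37 CPM in palmatine replicates 1 to 3, against 4.54, 5.21 and 3.68 CPM in control replicates 1 to 3. Control replicate 2 lay within the palmatine range, and the log2 fold change of 0.24 had a standard error of 0.15 (edgeR adjusted p = 0.495). GRHL3 had 7.51, 6.78 and 7.18 CPM in palmatine replicates 1 to 3, against 7.39, 8.59 and 5.27 CPM in control replicates 1 to 3. The control libraries of GRHL3 spread on both sides of the palmatine libraries, with a coefficient of variation of 5.05% in palmatine and 23.7% in control cells. Its sign changed under 3 of 21 alternatives, and the value was -0.16 without control replicate 3. The table's interval for GRHL3, chromosome 1 from 24199558 to 24364482 on the plus strand, starts 119764 bases upstream of the GENCODE release 29 gene, and STPG1 lies on the opposite strand at its end. The reads of GRHL3 and STPG1 cannot be told apart without strand information. AL138902.1 also overlaps the interval on the opposite strand, and AL590683.1 on the same strand.

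The AP-2 genes were both clearly expressed, with TFAP2C well above TFAP2A. TFAP2A, on chromosome 6 from 10393186 to 10419659 on the minus strand, had 62.3, 54.3 and 62.0 CPM in palmatine replicates 1 to 3, against 60.9, 51.7 and 45.1 CPM in control replicates 1 to 3. Control replicate 1 lay within the palmatine range. The fold change was 1.13, with a 95% interval from 0.952 to 1.35 (edgeR adjusted p = 0.481). TFAP2A lies opposite the antisense transcripts TFAP2A-AS1 and TFAP2A-AS2, whose reads cannot be told apart from its own without strand information. TFAP2C, on chromosome 20 from 56629306 to 56639283 on the plus strand, had 79.1, 75.5 and 74.4 CPM in palmatine replicates 1 to 3, against 75.5, 78.0 and 69.8 CPM in control replicates 1 to 3. Its fold change was 1.03, with a 95% interval from 0.917 to 1.15 (edgeR adjusted p = 0.829). TFAP2A made up 22.2% ± 1.29 of the summed AP-2 FPKM in palmatine and 20.4% ± 2.01 in control cells (SD, n = 3 per group, exact two-sided permutation p = 0.3). TFAP2A is the longer gene. With the trend on gene length removed, described below, the log2 fold changes of TFAP2A and TFAP2C were 0.11 and 0.10, against 0.18 and 0.04 before. The remaining AP-2 gene in the table that was examined, TFAP2B, had 0 counts in all libraries.

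The differentiation-linked factors OVOL1 and ZNF750 were low. OVOL1, on chromosome 11 from 65787063 to 65797214 on the plus strand, had 6.22, 7.96 and 5.00 CPM in palmatine replicates 1 to 3, against 6.24, 5.60 and 6.47 CPM in control replicates 1 to 3. The palmatine libraries held both the highest and the lowest value, and the log2 fold change of 0.07 had a standard error of 0.17 (edgeR adjusted p = 0.873). Without palmatine replicate 2 the log2 fold change was -0.11. OVOL1-AS1 lies within OVOL1 on the opposite strand, and AP001266.1 also overlaps OVOL1 there. ZNF750, on chromosome 17 from 82829434 to 82840022 on the minus strand, had 6, 3 and 4 counts in palmatine replicates 1 to 3, against 5, 4 and 5 counts in control replicates 1 to 3. ZNF750 did not reach the minimum count of 10 used for testing, and at this depth no difference was detectable. Without that filter its log2 fold change was -0.37 (edgeR adjusted p = 0.801), the only negative value among the 10 factors in that fit. Its locus lies within TBCD, which is on the opposite strand, so its few reads cannot be told apart from TBCD reads without strand information.

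The 9 tested factors tended to be highest and lowest in the same libraries. Palmatine replicate 1 was the highest of the 6 libraries for 7 of the 9, and control replicate 3 the lowest for 7 of the 9. The same libraries lay at the ends of the first principal component of all tested genes. How often they were the highest and lowest over all tested genes was not counted, so this order is not particular to the factors. The summed FPKM of all 10 factors was 221, 190.3 and 207 in palmatine replicates 1 to 3, against 196, 186 and 177 in control replicates 1 to 3. The mean gene length of a count in tested genes ran the same way at its ends, at 7138, 6709 and 7012 bases in palmatine replicates 1 to 3, against 6758, 6527 and 6441 bases in control replicates 1 to 3. Over all tested genes, which are not independent replicates, the log2 fold change was larger in longer genes (Spearman correlation 0.443 across 12356 genes). The median log2 fold change was -0.12 in the shortest 25% of genes and 0.09 in the longest 25%.

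**Figure D4:**
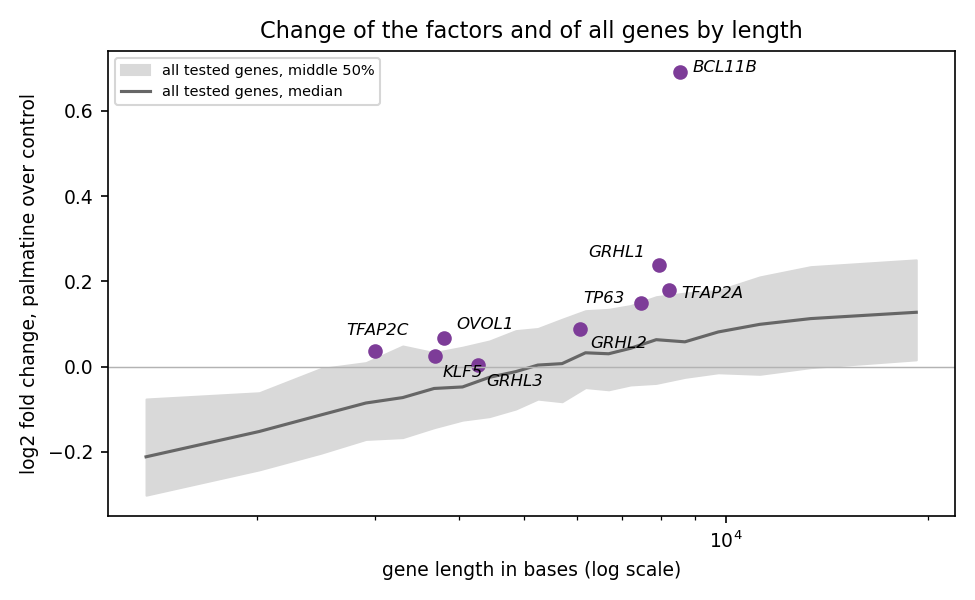
Log2 fold change of palmatine over control against gene length on a log axis, for the 9 tested factors (purple) and for all tested genes in 20 length bins of equal size (grey line, median; grey band, middle 50% of genes). The longer factors lie higher than the shorter ones, with BCL11B, at 8528 bases and 0.69, well above the band.

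The factors were divided by length as a description. The 5 longer ones, TP63, GRHL1, GRHL2, TFAP2A and BCL11B (6053 to 8528 bases), are above the median length of tested genes and had log2 fold changes from 0.09 to 0.69. The 4 shorter ones, GRHL3, OVOL1, KLF5 and TFAP2C (3001 to 4266 bases), had values from 0.00 to 0.07. All 9 were above the median of their length class of 25% of genes, by 0.03 for GRHL3 to 0.60 for BCL11B. With each library's trend on length removed, BCL11B was at 0.62 on the log2 scale (edgeR adjusted p = 0.467), TP63 at 0.09, GRHL1 at 0.17, TFAP2A at 0.11 and GRHL2 at 0.05. The shorter TFAP2C, OVOL1, KLF5 and GRHL3 were then at 0.10, 0.10, 0.06 and 0.02. The median of the 9 was 0.10 with the trend removed, against 0.09, and all 9 were positive in both.

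The values also shifted with the scaling. With FPKM rescaled to TPM (the same length-scaled values set to an equal total in each library), the median of all genes was 0.18 and the 9 factors had log2 fold changes from 0.21 for GRHL3 to 0.63 for BCL11B. Relative to that median the values ran from 0.03 for GRHL3 to 0.45 for BCL11B, and 0 passed (limma adjusted p of at least 0.089). The calls over all genes were then 2 higher and 5 lower, against 0 and 5, and with quantile-normalized FPKM 2 higher and 2 lower.

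Of 31 other epidermal transcription factors, 27 were tested and 0 passed in edgeR, DESeq2 or limma-voom. Their log2 fold changes were positive for 19 and negative for 8, with a median of 0.10. Leaving out 1 library at a time moved this median between 0.05 (without palmatine replicate 1 or control replicate 3) and 0.17 (without control replicate 1). Without adjustment, 3 higher and 2 lower genes had a p under 0.05 in edgeR. CEBPA, which encodes a factor that restrains keratinocyte proliferation, averaged 2.01 ± 0.860 CPM in palmatine and 3.70 ± 0.298 CPM in control cells, so that its log2 fold change was -0.90 (SD, n = 3 per group; edgeR adjusted p = 0.455). SOX9, a hair follicle stem cell factor, averaged 29.6 CPM in palmatine and 23.6 CPM in control cells, and RUNX1 198 CPM in palmatine and 166 CPM in control cells. TP73, a relative of TP63, averaged 16.1 CPM in palmatine and 13.3 CPM in control cells, a log2 fold change of 0.27. The edgeR adjusted p was 0.455 for each of CEBPA, SOX9, RUNX1 and TP73.

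Genes of the basal layer, many of them direct p63 targets, did not pass either. All 22 were tested and 0 passed in edgeR, DESeq2 or limma-voom; 16 log2 fold changes were positive and 6 negative, with a median of 0.13, and the median was 0.03 with the trend on length removed, 0.07 without control replicate 3 and 0.09 without palmatine replicate 1. Without adjustment, a p under 0.05 was reached by 3 higher and 0 lower genes in edgeR. The higher genes numbered 0 without palmatine replicate 1, palmatine replicate 3 or control replicate 3. They numbered 1 without control replicate 2, and 6 without palmatine replicate 2 or control replicate 1. Over all tested genes the number of higher genes moved as well, from 634 of 12356 with all libraries. It was 172 of 12432 without palmatine replicate 1, 194 of 12439 without palmatine replicate 3 and 285 of 12450 without control replicate 2. It was 1556 of 12461 without palmatine replicate 2 and 1461 of 12455 without control replicate 1. The number over all tested genes without control replicate 3 is not given here. JAG1, a Notch ligand, averaged 233 ± 11.3 CPM in palmatine and 201 ± 16.3 CPM in control cells (SD, n = 3 per group). Its log2 fold change was 0.22. NECTIN1, an adhesion molecule, had a log2 fold change of 0.32, FRAS1, a basement membrane protein, one of 0.44 and EGFR, the growth factor receptor, one of 0.38, each with an edgeR adjusted p of 0.455. KRT5 and KRT14, the basal keratins, were at -0.05 and -0.07.

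Of 26 differentiation genes 13 were tested, 7 positive and 6 negative, with a median of 0.05 (-0.03 without control replicate 3, 0.27 without control replicate 1, -0.06 without a count filter and 0.23 with log2(FPKM + 0.1)) and 0 passing in edgeR, DESeq2 or limma-voom. Without adjustment, edgeR gave a p under 0.05 for 1 higher and 0 lower genes. With 1 library left out it did so for 0 to 5 higher genes, the 5 being without control replicate 1. Over all tested genes, 1461 of 12455 had such a p as higher without control replicate 1, against 634 of 12356 with all libraries. The plakin genes EVPL and DSP, whose products anchor keratins at desmosomes, had log2 fold changes of 0.28 and 0.38, the plakophilin gene PKP1 one of 0.20, and TGM1, the transglutaminase of the cornified envelope, one of -0.14. Of 18 epithelial junction and splicing genes, a group that includes known grainyhead targets, all were tested, 9 positive and 9 negative, with a median of 0.00 and 0 passing in edgeR, DESeq2 or limma-voom. Without adjustment, edgeR gave a p under 0.05 for 0 higher and 2 lower genes, namely MAL2, a membrane trafficking protein (log2 fold change -0.23) and the claudin gene CLDN4 (-0.29). Of all tested genes 5.13% had such a p as higher and 4.69% as lower. ERBB3, a growth factor receptor, and CRB3, a polarity protein, were at 0.22 and -0.22. The 95% interval lay within a 1.5-fold change for all 18 of these genes and for 79.4% of all tested genes. It did so for 7 of the 13 differentiation genes, 17 of the 22 basal layer genes and 18 of the 27 other transcription factors.

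Transcription factors of mesenchymal cells, several of which are repressed by OVOL and grainyhead-like proteins, were mostly near the detection floor. Of 9, 4 were tested and 0 passed in edgeR, DESeq2 or limma-voom, with 0 at an unadjusted p under 0.05 in edgeR and a median log2 fold change of 0.01. SNAI2, which basal keratinocytes also express, averaged 65.4 ± 1.08 CPM in palmatine and 67.9 ± 2.02 CPM in control cells, and TCF4 12.4 CPM in palmatine and 11.7 CPM in control cells (SD, n = 3 per group). TWIST1 averaged 0.870 CPM in palmatine and 0.628 CPM in control cells, and TWIST2 0.573 CPM in palmatine and 1.02 CPM in control cells. ZEB1, ZEB2, SNAI1, PRRX1 and FOXC2 had at most 11 counts in any library and were not tested. In bulk RNA, a change in the number of cells that express a gene and a change in the amount per cell cannot be told apart.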

How the data were processed

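Per the submitters' processing notes, HISAT2 2.1.0 and HTSeq 0.9.1 were used; the strand setting, genome build and annotation release were not given in the sources used here. In the deposited table each library has raw read counts and FPKM per gene, per the file headers. The FPKM equalled count per gene length and library total for 100% of values above 0 (relative tolerance 1e-05). Its gene positions were set beside GENCODE release 29 (GRCh38), which held 19851 of its 20035 gene identifiers.

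Genes passing filterByExpr (minimum count 10; 12356 genes) were compared, palmatine over control, by the quasi-likelihood test of edgeR 4.0.16 (TMM, robust, R 4.3.3) over the whole table, two-sided, with Benjamini-Hochberg adjustment at 0.05 and no covariates. Alternatives used DESeq2 1.42.0, limma 3.58.1, other scalings and filters, a replicate block, a loess length trend (span 0.3) and each library left out. The procedure was run on simulated counts, drawn independently for each gene and library and without a trend on gene length. That run therefore does not cover data with such a trend, and its outcome is not given here. Floors cover counting error only.

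The members and lists were chosen with earlier results of these data known. Named were all members, the 4 tested genes with the smallest p in each list, and the 3 closest to BCL11B, of which 1 is not reported here; other names were chosen after their values were seen. One blank line of the table was not analysed here.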

Additional observations from a re-analysis of the deposited data

How the results depend on the processing

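Under each of the alternatives 0 of the tested factors passed, and likewise 0 genes of each related list, including the replicate block (0). A threshold of 0.1, applied to the main fit only, also gave 0. Under some alternatives the adjusted p lay between 0.05 and 0.1. It was 0.0716 for BCL11B with the replicate block and the length trend removed (edgeR). With FPKM rescaled to TPM it was 0.0890 for TP63, GRHL2, TFAP2C and BCL11B and 0.0922 for TFAP2A (limma). The 9 tested factors kept their sign in 183 of 189 values. GRHL3 turned negative with quantile-normalized FPKM (-0.0114), and the cause was not tested. With 1 library left out, GRHL3 ran from -0.16 (without control replicate 3) to 0.18 and was also negative without palmatine replicate 1 (-0.0333). OVOL1 ran from -0.11 (without palmatine replicate 2) to 0.21, KLF5 from -0.0350 (without palmatine replicate 1) to 0.105 and TFAP2C from -0.00828 (without control replicate 3) to 0.0707. The other factors stayed positive: GRHL1 ran from 0.12 (without control replicate 3) to 0.37 (without control replicate 2), TFAP2A from 0.08 (without control replicate 3) to 0.30 (without control replicate 1), GRHL2 from 0.03 (without control replicate 3) to 0.14 (without control replicate 1), TP63 from 0.11 to 0.19 and BCL11B from 0.59 to 0.78. The median over the factors was between 0.08 and 0.29, and with 1 library left out between 0.08 (without control replicate 3) and 0.15 (without control replicate 2). The count of called genes over the table, 5, was 14 with DESeq2, 8 without a count filter, 3 with unfiltered log2(FPKM + 1), 9 with the replicate block, 8 with the length trend removed, 26 with both of these, 1 without the mitochondrially encoded genes (4 of the 5 called genes are among those left out) and 8 at a threshold of 0.1; the cause was otherwise not tested. The replicate numbers were not taken to pair samples because no label says that they do. Same-numbered libraries of the groups had correlations of their deviations of 0.40, 0.18 and -0.10. Differently numbered ones ran from -0.46 to 0.32, and with 3 libraries per group these values do not settle the question. With the replicate block, 1268 higher and 1235 lower genes had an unadjusted p under 0.05 in edgeR, against 634 and 579 without it. Depth limits ZNF750, BCL11B, GRHL1, GRHL3 and OVOL1, which had at most 146 counts in a library.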
